A study of Drosophila melanogaster with 56 samples.

Results

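Embryos of *Drosophila melanogaster* collected 12 h after egg-laying were compared with embryos collected 6 h after egg-laying, by sequencing of polyadenylated RNA. The comparison rests on 4 samples at 12 h and 4 samples at 6 h, which were chosen by the time in their labels and are 8 of the 56 samples of a series of 14 time points. All 8 samples were whole embryos of the wild-type strain Oregon R, laid by fertilized females within 30 min windows, kept at 25 °C without treatment and dechorionated with hypochlorite. Each sample was a pool of whole embryos with every tissue, so that fewer cells of a type and less RNA per cell cannot be told apart. The labels call the 4 samples of a time biological replicates. The p-values and standard errors (SE) use a spread between replicates that was estimated over all 14 time points, not from these 8 samples alone.

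The 2 times stand on either side of a large rearrangement of the fly embryo. At the earlier one the body plan has been laid down, the germ band is extended, neuroblasts are leaving the ectoderm and most cells still divide. At the later one the germ band has shortened, the epidermis is closing over the back, myoblasts have begun to fuse, and axons, glia, tracheal tubes and salivary glands are forming, while most of the epidermis has stopped dividing. A pulse of the steroid hormone ecdysone, best known as the moulting hormone of larvae, also occurs in mid-embryogenesis.

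The 12 h samples held 13422473 to 16577902 counts on genes each, and the 6 h samples 14149639 to 18409607. At these depths, 3 counts corresponded to 0.163 to 0.224 CPM (counts scaled by the library's total). The first principal component of the 8 samples held 69.2% of the variance and separated the 2 times. Spearman correlations over 14198 genes averaged 0.981 within 12 h, 0.980 within 6 h and 0.954 between the times, where the genes are not independent points. RNA of genes typical of much older embryos was present in both groups: the Osiris genes, a family of the late embryonic epidermis and trachea, summed to 58.4 to 204 RPKM at 12 h and to 176 to 384 RPKM at 6 h, that is a mean of 3.36% and 6.31% of the level at 16 h. Of the 22 Osiris genes, 4 were at 0 in all samples at 12 h and 3 at 6 h. Osiris RNA was highest in replicate 1 at both times. Tweedle cuticle genes summed to 18.3 to 95.6 RPKM at 12 h and to 26.9 to 116 RPKM at 6 h (means of 20.6% and 28.2% of the level at 16 h), and RR-type cuticle genes to 36.8 to 151 RPKM at 12 h and to 47.1 to 220 RPKM at 6 h (18.7% and 24.03%). Both cuticle lists were far higher at 20 h than at 16 h. Of the 20 h level, the means at 12 and 6 h were 0.66% and 0.91% for Tweedle genes, and 0.70% and 0.90% for RR-type genes. Both cuticle lists were highest in replicate 1 at 12 h and in replicate 4 at 6 h. Markers of adult females (yolk protein, vitelline membrane and chorion genes) summed to 0.974 to 1.27 RPKM at 12 h and to 1.06 to 5.40 RPKM at 6 h. Of these 12 genes, 6 were at 0 in all 12 h samples and 1 in all 6 h samples. The part of this RNA in the results was not tested, and it is mentioned beside some of the genes that were highest in the same samples.

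Of 11065 genes tested, 2739 changed, with an adjusted p under 0.05 (edgeR quasi-likelihood test, Benjamini-Hochberg) and a fold change of 1 or more on the log2 scale in either direction. At 12 h, 1493 genes were higher (13.5% of those tested) and 1246 were lower (11.3%). A log2 fold change of at least 2 was passed by 478 of the higher and 360 of the lower genes. Levels in the 4 samples of 12 h and the 4 samples of 6 h did not overlap for 1423 of the higher and 1143 of the lower genes, as for 55.5% of all genes tested. The split, 54.5% higher in the fit used here, differed between fits. With library totals alone, 1770 genes were higher and 934 lower (65.5% higher), and the median log2 fold change of all genes was 0.02, beside -0.15. With TMM factors and only the 8 samples, 62.5% were higher, and leaving out 1 sample gave 63.1 to 67.0%, except for 52.5% without 6 h replicate 2. Without 12 h replicate 4, 811 genes were lower. Changes of gene groups are therefore given beside the median of all genes, -0.15. Levels are RPKM, in which counts are scaled by the library's total on genes and by exon length, without the TMM factors. Without the sample of each time with the most Osiris RNA, 12 h replicate 1 and 6 h replicate 1, 1284 genes were higher and 1075 lower, of which 1264 and 1043 were among the genes above. Without 6 h replicate 4, which held the most cuticle gene RNA at 6 h, 1757 genes were higher and 946 lower.

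Among the changed genes that met the abundance and sample criteria for naming (871 higher and 719 lower), the largest rise was that of *jhamt*, which encodes the methyltransferase of the last steps of juvenile hormone synthesis in the corpora allata. Its level was 54.2, 20.8, 14.95 and 66.3 RPKM in the 12 h samples, against 0.585, 3.03, 2.67 and 2.13 RPKM in the 6 h samples. The lowest 12 h sample stood well above the highest 6 h sample, although the 12 h samples themselves spread widely. The log2 fold change was 4.05 ± 0.79 (SE, n = 4 each, edgeR adjusted p = 3.01e-05). The gene lies on chromosome 2L, at positions 16365903 to 16367039 of BDGP6.

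The 14 other leading rises had log2 fold changes of 3.11 or more. *Oat*, ornithine aminotransferase, had 70.7, 67.3, 68.1 and 82.7 RPKM at 12 h, against 5.10, 5.37, 11.6 and 5.54 RPKM at 6 h, a log2 fold change of 3.23 ± 0.36. *Miox*, the inositol oxygenase, averaged 12.5 RPKM at 12 h and 1.11 RPKM at 6 h. *ninaD*, a scavenger receptor needed for carotenoid uptake, averaged 14.7 RPKM at 12 h and 1.32 RPKM at 6 h. Transcription factors of the zinc finger type were in this group, *Blimp-1*, a repressor that ecdysone induces at later stages, and *sug*, a regulator known from the response to dietary sugar. *Blimp-1* averaged 17.1 RPKM at 12 h and 1.70 RPKM at 6 h (log2 fold change 3.17 ± 0.55), and *sug* averaged 21.9 RPKM at 12 h and 2.20 RPKM at 6 h (3.14 ± 0.32). The other leading genes were the mucin gene *Muc30E*, *bip1*, *CG34377*, *CG42326*, *CG7966*, *CG3880*, *CG6733*, *CG8407* and *lncRNA:CR46003*, with log2 fold changes between 3.11 and 3.36.

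The largest falls were steeper than the largest rises. *wntD*, a secreted Wnt family protein that acts as a feedback inhibitor of the Dorsal pathway, was at 0.972, 2.51, 1.16 and 0.390 RPKM at 12 h, against 131, 143, 122 and 129 RPKM at 6 h. Its log2 fold change was -6.86 ± 0.47 (adjusted p = 7.23e-16), the lowest of all genes tested. *CG10035*, a gene with no assigned role here, had 8.31, 15.8, 9.91 and 2.42 RPKM at 12 h, against 766, 745, 687 and 720 RPKM at 6 h. Every 12 h sample of both genes was far below every 6 h sample. Within 12 h, replicate 4 was the lowest for *wntD*, *CG10035* and *CG34025*, and replicate 2 was the highest.

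*halo*, which directs lipid droplet transport in the early embryo, averaged 1.47 RPKM at 12 h and 50.8 RPKM at 6 h, and it had been at 734 RPKM at 3 h. *Srr*, a serine racemase, averaged 0.601 RPKM at 12 h and 31.9 RPKM at 6 h. *Atx-1*, the fly ataxin-1, averaged 1.39 RPKM at 12 h and 27.7 RPKM at 6 h, and *Sr-CII*, a scavenger receptor of the macrophage type, 5.78 RPKM at 12 h and 108 RPKM at 6 h. These falls were between -5.90 and -4.40 on the log2 scale. *CG34025*, *lncRNA:CR43887*, *Ugt49B2*, *Mal-B2*, *Myo28B1*, *CG13465* and *CG15480* completed the 15, together with the steroid synthesis genes *spo* and *phtm*.

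**Figure D1:**
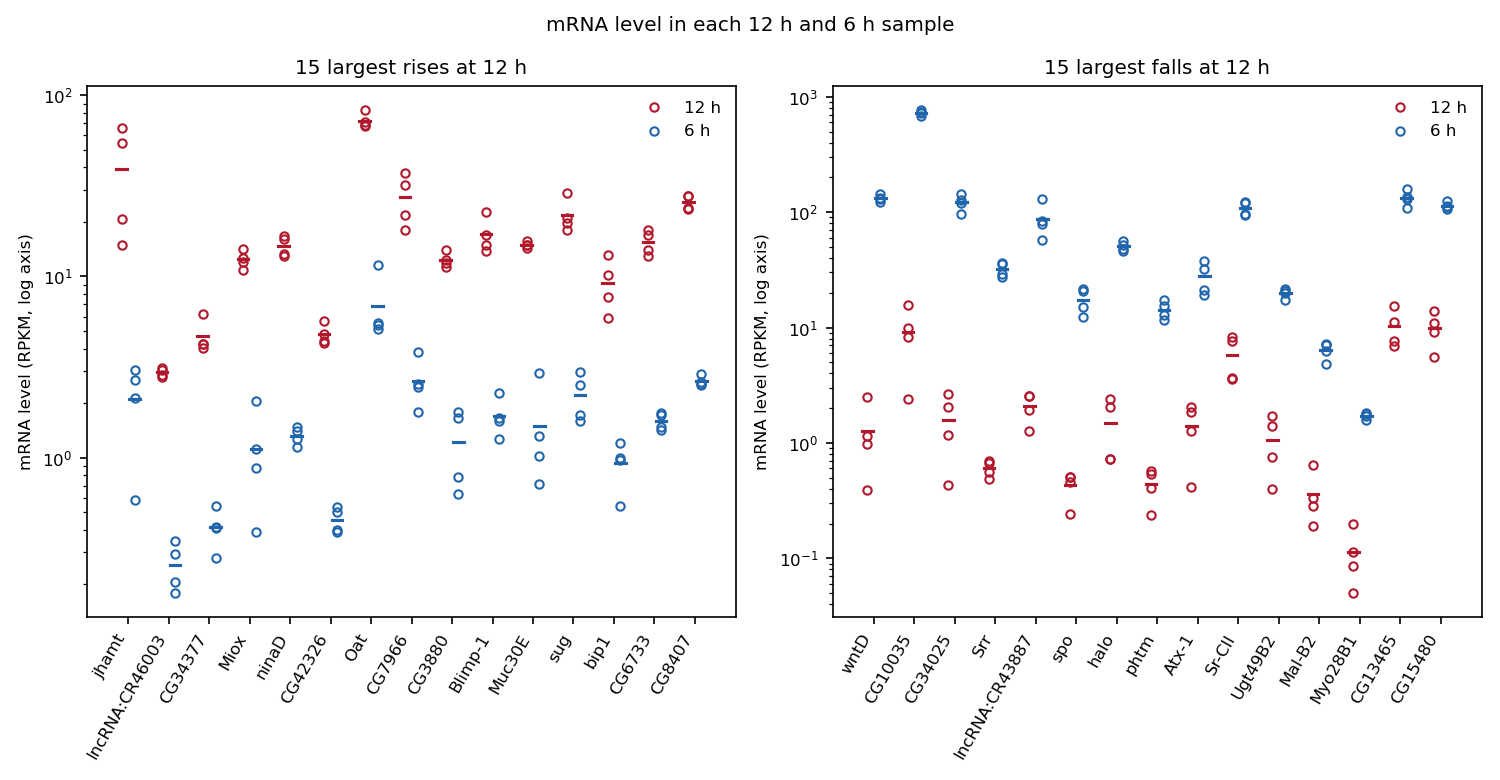
RPKM (log axis) of the 15 leading rises and the 15 leading falls, in the 4 samples of 12 h (red) and the 4 samples of 6 h (blue). Circles are samples and bars are means of 4. The samples of the 2 times do not overlap for any of the 30 genes, which the choice of genes required, and the 12 h samples of *jhamt* spread from 14.95 to 66.3 RPKM.

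Genes of ecdysone synthesis and of the ecdysone response moved in opposite directions. In *Drosophila*, the Halloween enzymes convert cholesterol to ecdysone in steps, and *shd* converts ecdysone to the active 20-hydroxyecdysone in peripheral tissues. Of 7 synthesis genes tested, 5 fell (71.4%, against 11.3% of all genes) and *shd* rose (14.3%, near the 13.5% of all genes). Of these 5, *phtm* was matched to its list entry only after its value was seen, which raises the share. The list's median log2 fold change was -2.67. *spo*, a cytochrome P450 of an early step, was at 0.508, 0.463, 0.509 and 0.240 RPKM at 12 h, against 21.4, 20.9, 12.2 and 15.1 RPKM at 6 h (-5.48 ± 0.41). *phtm*, the P450 also known as *Cyp306a1*, was at 0.540, 0.407, 0.575 and 0.237 RPKM at 12 h, against 17.5, 15.3, 11.6 and 12.8 RPKM at 6 h (-5.16 ± 0.51). The 12 h samples of *spo* and *phtm* held 7 to 21 counts each and were all below the 6 h samples.

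The falls of the remaining Halloween genes were smaller for *dib* and *sad*. *dib* averaged 5.35 ± 2.07 RPKM at 12 h and 29.9 ± 3.67 RPKM at 6 h (SD, n = 4 each), a log2 fold change of -2.65 ± 0.36 (SE). *sad* averaged 3.81 ± 1.27 RPKM at 12 h and 21.7 ± 1.44 RPKM at 6 h, a log2 fold change of -2.67 ± 0.41. *sro*, a dehydrogenase of the pathway, averaged 0.101 RPKM at 12 h, where its 4 samples held 1 to 4 counts, and 2.54 RPKM at 6 h. In contrast, *shd* had 7.03, 8.10, 7.32 and 8.99 RPKM at 12 h, against 0.871, 0.961, 1.32 and 0.955 RPKM at 6 h (2.77 ± 0.48, adjusted p = 4.8e-06). *spok*, a close copy of *spo*, stayed at a mean of 0.156 RPKM at 12 h and 0.0991 RPKM at 6 h, and did not pass the test. Reads that align to both copies were counted to neither.

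Of 18 genes of the ecdysone receptor and response, 10 rose (55.6%, against 13.5% of all genes), and the median was 1.92. The 10 comprised 7 nuclear receptors, *Eip75B*, *Hr3*, *Hr4*, *Hr38*, *Hr39*, *Hr78* and *Eip78C*, and the transcription factors *Eip74EF*, *Eip93F* and *Blimp-1*. *Hr78* had 46.5, 46.6, 44.3 and 54.8 RPKM at 12 h, against 7.12, 7.62, 10.7 and 9.45 RPKM at 6 h (2.30 ± 0.13). *Eip75B* averaged 11.4 RPKM at 12 h and 1.73 RPKM at 6 h (2.56 ± 0.35). *Hr3* had 11.4, 7.10, 7.53 and 13.9 RPKM at 12 h, against 1.26, 0.891, 1.89 and 1.66 RPKM at 6 h, and *Hr4* 22.8, 14.4, 17.9 and 27.5 RPKM at 12 h, against 3.13, 1.94, 3.92 and 4.03 RPKM at 6 h. In *Hr3*, *Hr4* and *jhamt*, replicates 1 and 4 of 12 h were above replicates 2 and 3. *Hr39* averaged 36.4 RPKM at 12 h and 9.44 RPKM at 6 h (1.78 ± 0.21).

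Not every gene that rose was abundant. *Eip74EF* averaged 0.990 RPKM at 12 h and 0.102 RPKM at 6 h, *Eip93F* 0.211 RPKM at 12 h and 0.0210 RPKM at 6 h, and *Hr38* 0.305 RPKM at 12 h and 0.0492 RPKM at 6 h. The 2 subunits of the receptor had smaller differences: *EcR* averaged 12.6 RPKM at 12 h and 6.85 RPKM at 6 h (0.71 ± 0.23, adjusted p = 0.00805, under the fold limit), and *usp* 10.8 RPKM at 12 h and 8.60 RPKM at 6 h (0.16 ± 0.11). *ImpE2*, named for its induction by ecdysone in imaginal discs, was the exception in direction, with a mean of 32.2 RPKM at 12 h and 95.0 RPKM at 6 h (-1.71 ± 0.71, adjusted p = 0.0415). Its highest sample at each time was replicate 1, which also held the most Osiris RNA. Its call was lost without these 2 samples and with library totals alone, at log2 fold changes of -1.92 and -1.56. It was also lost with DESeq2 size factors, without the filter and on leaving out any single sample except 6 h replicate 2. The edgeR adjusted p in these fits was 0.0508 to 0.125.

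**Figure D2:**
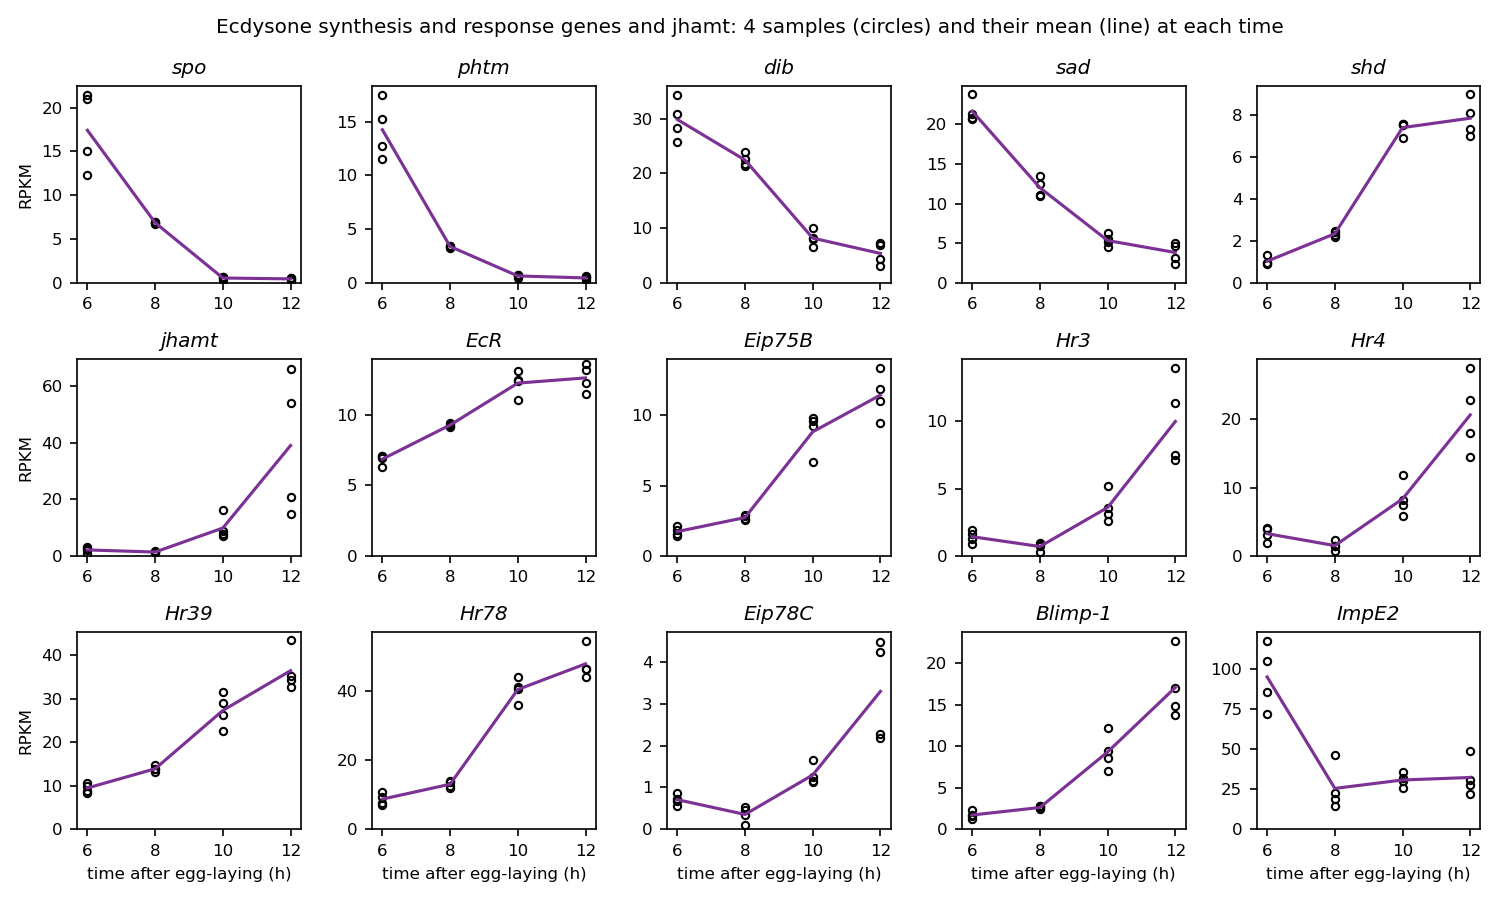
RPKM (linear axes from 0) of 5 genes of ecdysone synthesis (*spo*, *phtm*, *dib*, *sad*, *shd*), of *jhamt*, and of 9 genes of the ecdysone receptor and response at 6, 8, 10 and 12 h after egg-laying. Circles are the 4 samples of each time and lines join their means. *spo* was at a mean of 6.84 RPKM at 8 h and *phtm* at 3.37 RPKM, whereas *Hr3*, *Hr4* and *Eip78C* had lower means at 8 h than at 6 h.

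The order in time differed within these genes. The mean of *spo* was 17.4, 6.84, 0.529 and 0.430 RPKM at 6, 8, 10 and 12 h, and that of *dib* 29.9, 22.5, 8.16 and 5.35 RPKM. *Eip75B* had means of 1.73, 2.72, 8.82 and 11.4 RPKM, and *Hr78* of 8.71, 13.04, 40.6 and 48.0 RPKM. Thus, most of the change of both genes lay between 8 and 10 h. *Hr4* had means of 3.26, 1.504, 8.35 and 20.7 RPKM, and *jhamt* of 2.10, 1.36, 9.86 and 39.1 RPKM, with the largest step in RPKM between 10 and 12 h. On the log2 scale, the largest step of *Hr4* and *jhamt* also lay between 8 and 10 h. By 20 h *jhamt* was at 0.407 RPKM and *Blimp-1* at 0.471 RPKM.

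Genes of cell division and of DNA replication were mostly lower at 12 h. Of 21 cyclins and mitotic genes, 16 fell (76.2%, against 11.3% of all genes), with a median of -1.24. The mitotic cyclin *CycB* had 178, 261, 250 and 189 RPKM at 12 h, against 494, 492, 487 and 482 RPKM at 6 h (-1.33 ± 0.20). *CycB3* had 92.0, 132, 131 and 95.2 RPKM at 12 h, against 306, 276, 296 and 264 RPKM at 6 h (-1.51 ± 0.19). In both genes, replicates 1 and 4 of 12 h were the lowest. *CycE*, the cyclin of S phase entry, averaged 27.96 RPKM at 12 h and 59.5 RPKM at 6 h, the mitotic kinase *polo* 126 RPKM at 12 h and 290 RPKM at 6 h, *aurB*, the kinase of the chromosomal passenger complex, 47.6 RPKM at 12 h and 123 RPKM at 6 h, and *fzy*, the Cdc20 activator of the anaphase-promoting complex, 98.4 RPKM at 12 h and 238 RPKM at 6 h. The securin *pim* and the separase *thr* fell by 1.26 and 1.41 on the log2 scale, and *pim* lost its call without 12 h replicate 1 (-0.98). *CycA* and *Cdk1* were near the fold limit, at -1.04 and -1.15. *CycA* lost its call with DESeq2 (-0.90), with library totals alone (-0.87) and without any single sample, and *Cdk1* with library totals alone (-0.98) and without 12 h replicate 1, 3 or 4 or 6 h replicate 3 (-0.999 to -0.899). Without 12 h replicate 1, 9 of the 21 genes passed the test as lower, beside 845 of all genes. With DESeq2, 15 passed as lower, beside 985 of all genes.

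The exception was *dap*, the inhibitor of CycE/Cdk2 that stops the cycle in the embryonic epidermis. *dap* had 231, 333, 315 and 280 RPKM at 12 h, against 79.9, 85.7, 99.9 and 81.1 RPKM at 6 h (1.57 ± 0.23, adjusted p = 1.95e-07), and its mean was highest at 10 h, with 419 RPKM. *stg*, the Cdc25 phosphatase that triggers embryonic mitoses, averaged 192 RPKM at 12 h and 132 RPKM at 6 h (0.36 ± 0.26, adjusted p = 0.263). *fzr*, the Cdh1 activator, averaged 95.5 RPKM at 12 h and 58.7 RPKM at 6 h (0.54 ± 0.20, adjusted p = 0.0216, under the fold limit).

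Of 26 DNA replication genes, 19 fell (73.1%, against 11.3% of all genes), with a median of -1.37. The replicative helicase was represented by *Mcm2*, *dpa* (the fly Mcm4), *Mcm5*, *Mcm6* and *Mcm7*, which fell by 1.30 to 1.97. *Mcm5* had 48.6, 60.2, 55.7 and 48.3 RPKM at 12 h, against 196, 192, 183 and 173 RPKM at 6 h (-1.97 ± 0.22). *PCNA*, the sliding clamp, had 120, 159, 146 and 138 RPKM at 12 h, against 413, 386, 415 and 386 RPKM at 6 h (-1.68 ± 0.15, adjusted p = 8.34e-13). All 12 h samples were below all 6 h samples in both genes, with little spread within a time. The subunits of ribonucleotide reductase, which makes deoxynucleotides, differed: *RnrS*, the small one, averaged 144 RPKM at 12 h and 458 RPKM at 6 h (-1.84 ± 0.23), and *RnrL*, the large one, 47.3 RPKM at 12 h and 62.8 RPKM at 6 h (-0.58 ± 0.18, under the fold limit). The origin recognition gene *Orc2* fell by 1.48. The transcription factor *E2f1*, a regulator of these genes in flies, averaged 46.7 RPKM at 12 h and 46.8 RPKM at 6 h and did not pass the test. *Psf3* and *Cdc45*, other parts of the helicase, were near the limit at -1.05 and -1.08, and lost the call with DESeq2 and with library totals alone.

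**Figure D3:**
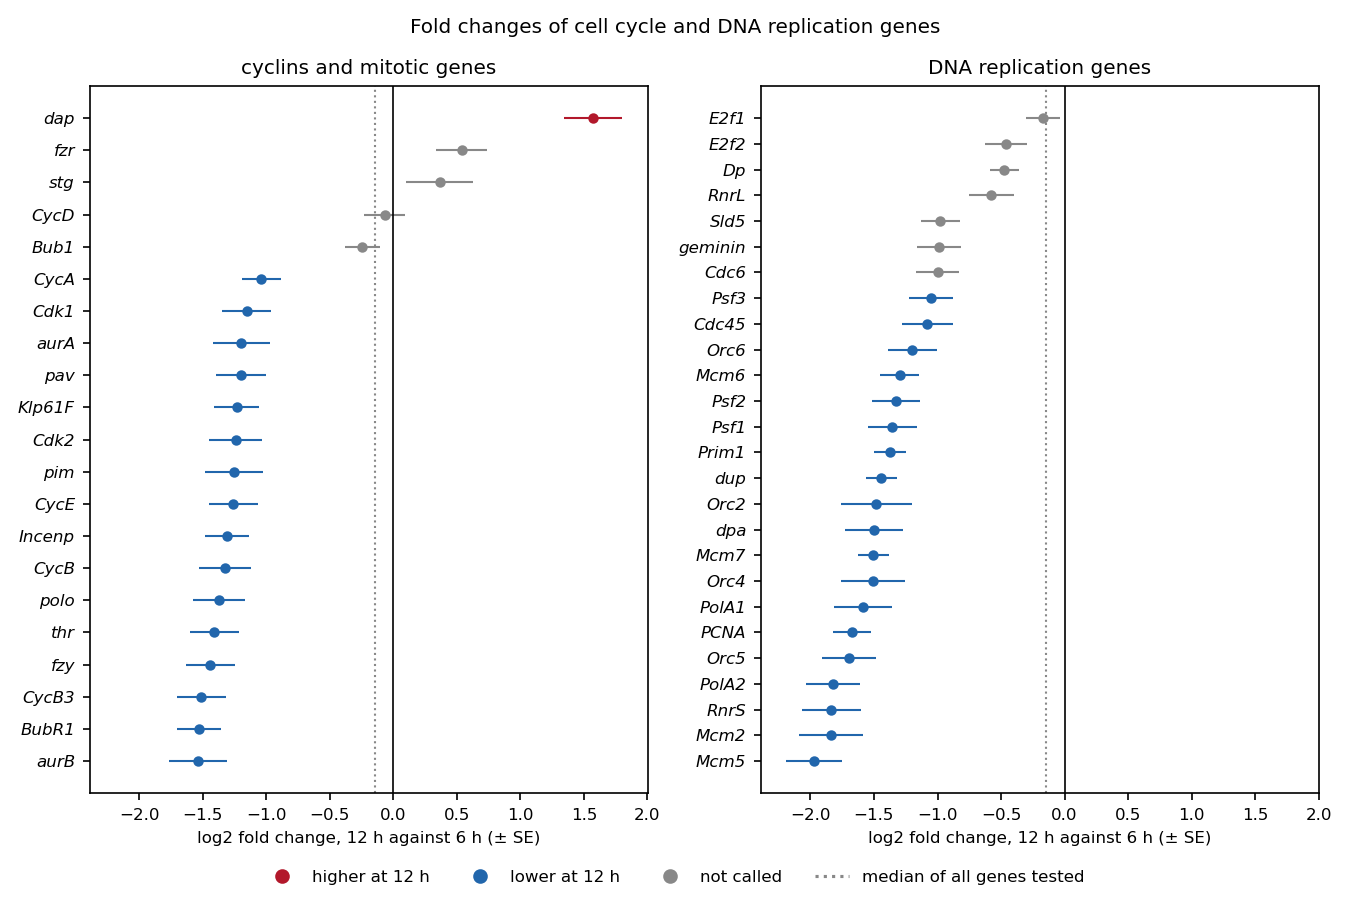
Log2 fold change of 12 h against 6 h (± SE, n = 4 each) of the 21 cyclins and mitotic genes and the 26 DNA replication genes tested. Red and blue points passed the test as higher and lower, grey points did not, and the dotted line is the median of all genes, -0.15. *dap* stands at 1.57 and 35 genes are called lower.

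Genes of the segmentation cascade, which subdivides the blastoderm along its length, were lower in part. Of 14 gap and pair-rule genes, 6 fell (42.9%, against 11.3% of all genes), with a median of -0.89. These were *gt*, *hkb*, *Kr*, *slp1*, *slp2* and *run*. The gap gene *gt* had 2.88, 3.67, 4.41 and 3.39 RPKM at 12 h, against 28.9, 23.2, 22.5 and 25.8 RPKM at 6 h (-2.97 ± 0.36). *Kr* averaged 16.6 RPKM at 12 h and 56.3 RPKM at 6 h, and *slp1*, of the sloppy paired locus, 43.2 RPKM at 12 h and 137 RPKM at 6 h (-1.83 ± 0.31). *hb* averaged 20.8 RPKM at 12 h and 35.9 RPKM at 6 h, just under the fold limit (-0.95 ± 0.27). Of 9 segment polarity genes, 1 fell (11.1%, near the 11.3% of all genes). This was *gsb*, with a mean of 20.8 RPKM at 12 h and 66.9 RPKM at 6 h (-1.85 ± 0.35). The neighbour and paralogue of *gsb*, *gsb-n*, averaged 14.8 RPKM at 12 h and 6.67 RPKM at 6 h (0.98 ± 0.31). It passed the test as higher with DESeq2 and with library totals alone. *en*, the marker of posterior compartments, averaged 21.2 RPKM at 12 h and 32.3 RPKM at 6 h (-0.78 ± 0.30).

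The Hox genes, which give segments their identity, and their cofactors differed less. By the edgeR test 0 of 10 passed (against 13.5% higher and 11.3% lower of all genes), and DESeq2 called 1, *abd-A*. By edgeR, 3 had an unadjusted p under 0.05, all higher, while 5395 of all 11065 genes had an adjusted p under 0.05. *abd-A* had 41.0, 46.0, 46.9 and 48.4 RPKM at 12 h, against 23.8, 20.2, 22.6 and 21.7 RPKM at 6 h (0.88 ± 0.36). *Ubx* averaged 21.1 RPKM at 12 h and 15.1 RPKM at 6 h, and *Dfd* 8.70 RPKM at 12 h and 9.06 RPKM at 6 h. The cofactor *exd* averaged 116 RPKM at 12 h and 119 RPKM at 6 h, and *hth* 46.3 RPKM at 12 h and 46.4 RPKM at 6 h. Among maternal and germ plasm mRNAs, *pgc*, which silences transcription in pole cells, fell to 1.05 RPKM at 12 h, against 3.95 RPKM at 6 h (-2.08 ± 0.38), with a level of 205 RPKM at 1 h. *bcd* and *osk* were low at both times, at 2.16 and 1.25 RPKM at 12 h and 2.34 and 0.900 RPKM at 6 h.

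Targets of Notch signalling in the E(spl) complex divided into 2 groups. Of 15 Notch pathway and E(spl) genes, 6 fell (40%, against 11.3% of all genes) and 3 rose (20%, against 13.5%). *E(spl)m5-HLH*, a repressor of the basic helix-loop-helix family, had 17.8, 37.0, 29.1 and 20.4 RPKM at 12 h, against 169, 149, 184 and 155 RPKM at 6 h (-2.83 ± 0.38). *E(spl)m4-BFM*, of the Bearded family, averaged 66.0 RPKM at 12 h and 335 RPKM at 6 h (-2.52 ± 0.35). *E(spl)mgamma-HLH* and *E(spl)mdelta-HLH* had log2 fold changes of -1.499 and -1.57, and *E(spl)m8-HLH* of -1.30, which lost its call without 12 h replicate 1 (-0.96). The ubiquitin ligase *neur*, which activates Notch ligands, averaged 50.6 RPKM at 12 h and 126 RPKM at 6 h (-1.49 ± 0.16).

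Within the same complex, *E(spl)m6-BFM* had 23.6, 22.2, 17.9 and 34.1 RPKM at 12 h, against 2.56, 2.92, 4.69 and 4.06 RPKM at 6 h (2.61 ± 0.35), and *E(spl)m3-HLH* averaged 84.1 RPKM at 12 h and 25.1 RPKM at 6 h (1.58 ± 0.32). The Notch ligand *Ser* averaged 17.1 RPKM at 12 h and 2.25 RPKM at 6 h (2.77 ± 0.37). The receptor *N* itself averaged 60.6 RPKM at 12 h and 59.1 RPKM at 6 h (-0.13 ± 0.31). Means of *E(spl)m5-HLH* at 6, 8, 10 and 12 h were 164, 177, 70.5 and 26.1 RPKM, whereas those of *E(spl)m3-HLH* were 25.1, 50.8, 116 and 84.1 RPKM.

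Proneural genes, which let ectodermal cells become neural precursors, were among the genes that fell. Of 18 proneural and neuroblast genes, 9 fell (50%, against 11.3% of all genes) and 1 rose (5.56%, against 13.5%), with a median of -0.95. *l(1)sc* had 14.8, 28.6, 21.9 and 16.0 RPKM at 12 h, against 180, 217, 194 and 184 RPKM at 6 h (-3.43 ± 0.42). *ac* averaged 6.06 RPKM at 12 h and 47.3 RPKM at 6 h (-3.13 ± 0.39), and *sc* 4.37 RPKM at 12 h and 17.1 RPKM at 6 h (-2.14 ± 0.43). The proneural genes of chordotonal and multidendritic sense organs, *ato* and *amos*, fell (-2.99 and -4.01 on the log2 scale), to 2.41 and 0.471 RPKM at 12 h, against 17.1 and 6.95 RPKM at 6 h. Of the means at 6, 8, 10 and 12 h, those of *ac*, *sc* and *ato* were highest at 8 h, with 55.5, 22.5 and 28.2 RPKM. *ase*, which marks neuroblasts and their precursors, averaged 28.1 RPKM at 12 h and 25.3 RPKM at 6 h (-0.02 ± 0.27).

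Transcription factors that neuroblasts express one after the other moved in opposite directions. *nub* and *pdm2*, the POU genes of the middle of this sequence, averaged 11.6 and 12.1 RPKM at 12 h, against 30.6 and 41.4 RPKM at 6 h (-1.56 ± 0.27 and -1.95 ± 0.31). *cas*, the zinc finger gene that follows them, had 38.1, 45.9, 45.0 and 40.6 RPKM at 12 h, against 13.9, 9.02, 15.1 and 13.3 RPKM at 6 h (1.56 ± 0.39). The Sox genes *SoxN* and *D* were near the fold limit, at -1.13 and -1.14, and lost the call with DESeq2 and with library totals alone.

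Of 19 neuronal differentiation and synaptic vesicle genes, *elav* and *fne* rose (10.5%, near the 13.5% of all genes), *cac* fell (5.26%, against 11.3%) and 16 did not pass. *elav*, the RNA-binding protein of all neurons, had 58.8, 56.8, 66.3 and 68.2 RPKM at 12 h, against 20.6, 23.2, 22.9 and 21.9 RPKM at 6 h (1.33 ± 0.36, adjusted p = 0.00203). Its relative *fne* had 23.6, 14.5, 18.5 and 28.4 RPKM at 12 h, against 2.91, 2.60, 3.38 and 2.90 RPKM at 6 h (2.69 ± 0.42). Of the synaptic genes, the vesicle SNARE *nSyb* averaged 1.16 RPKM at 12 h and 0.923 RPKM at 6 h, and the calcium sensor *Syt1* 0.351 RPKM at 12 h and 0.425 RPKM at 6 h. Both were highest in replicate 1 at each time, as the Osiris genes were. The calcium channel gene *cac* averaged 0.339 RPKM at 12 h and 1.05 RPKM at 6 h (-1.78 ± 0.44). Of 11 neurotransmitter genes, 1 fell (9.09%, near the 11.3% of all genes). This was *SerT*, the serotonin transporter, at very low levels, 0.0269 RPKM at 12 h and 0.228 RPKM at 6 h. *ChAT* averaged 0.16 RPKM at 12 h and 0.0911 RPKM at 6 h and did not pass.

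Of 19 axon guidance genes, *Fas3* and *Con*, adhesion proteins of subsets of axons and muscles, rose (10.5%, near the 13.5% of all genes). *Fas3* had 132, 98.6, 114 and 147 RPKM at 12 h, against 17.2, 14.5, 21.5 and 19.4 RPKM at 6 h (2.60 ± 0.49), and *Con* averaged 17.7 RPKM at 12 h and 3.38 RPKM at 6 h (2.22 ± 0.40). *Fas2* averaged 84.6 RPKM at 12 h and 37.4 RPKM at 6 h (1.01 ± 0.45, adjusted p = 0.0566) and passed with DESeq2 and with library totals alone. The midline repellent *sli* and its receptor *robo1*, by contrast, had means of 82.6 and 53.7 RPKM at 12 h, against 87.2 and 37.5 RPKM at 6 h, and did not pass. Of 11 glial genes, 3 rose (27.3%, against 13.5% of all genes). *repo*, the homeodomain factor of lateral glia, had 12.9, 12.4, 14.3 and 17.5 RPKM at 12 h, against 1.72, 1.70, 2.06 and 2.28 RPKM at 6 h (2.71 ± 0.30, adjusted p = 4.11e-10). *wrapper*, of the midline glia, averaged 26.7 RPKM at 12 h and 4.13 RPKM at 6 h (2.53 ± 0.38), and *Gs2*, a glutamine synthetase, 53.8 RPKM at 12 h and 21.99 RPKM at 6 h (1.13 ± 0.32). *gcm*, the upstream switch of glial fate, averaged 45.4 RPKM at 12 h and 37.4 RPKM at 6 h (0.11 ± 0.35).

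Genes of the mesoderm moved in both directions. Of 16 mesoderm, myogenic and fusion genes, 7 rose (43.8%, against 13.5% of all genes) and 3 fell (18.8%, against 11.3%), with a median of 0.58. Of the 6 that did not pass, *sna*, *htl* and *stumps*, which act in the early mesoderm, had log2 fold changes of -0.99, -0.43 and -0.07 (*sna* passed, at -1.04, without 12 h replicate 1 and 6 h replicate 1), the fusion genes *mbc* and *siz* 0.19 and -0.98, and *Mef2* 0.97. *tin*, required for heart and visceral muscle, had 3.40, 4.11, 4.21 and 2.64 RPKM at 12 h, against 34.1, 33.6, 28.8 and 31.0 RPKM at 6 h (-3.31 ± 0.37). Its target in visceral mesoderm, *bap*, averaged 3.74 RPKM at 12 h and 24.5 RPKM at 6 h (-2.87 ± 0.36), and *twi*, the mesoderm determinant, 6.11 RPKM at 12 h and 18.8 RPKM at 6 h (-1.78 ± 0.31). In all 3 genes the highest 12 h sample was below the lowest 6 h sample.

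Fusion pairs founder cells with fusion-competent myoblasts through immunoglobulin proteins. *sns*, on the fusion-competent cells, had 45.5, 49.2, 56.1 and 60.4 RPKM at 12 h, against 9.27, 9.34, 11.7 and 10.7 RPKM at 6 h (2.20 ± 0.43). *kirre* and *rst*, on the founders, averaged 5.64 and 35.5 RPKM at 12 h, against 1.18 and 14.5 RPKM at 6 h (2.09 ± 0.31 and 1.13 ± 0.26). The intracellular fusion proteins *blow* and *rols* rose by 2.87 ± 0.28 and 2.26 ± 0.29. *lmd*, the factor of fusion-competent cells, averaged 48.6 RPKM at 12 h and 15.4 RPKM at 6 h, and *nau*, the fly MyoD, 5.41 RPKM at 12 h and 1.72 RPKM at 6 h, and both were highest at 10 h. *Mef2*, which activates muscle structural genes, averaged 46.0 RPKM at 12 h and 20.9 RPKM at 6 h (0.97 ± 0.18), just under the fold limit, and passed with DESeq2 and with library totals alone.

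**Figure D4:**
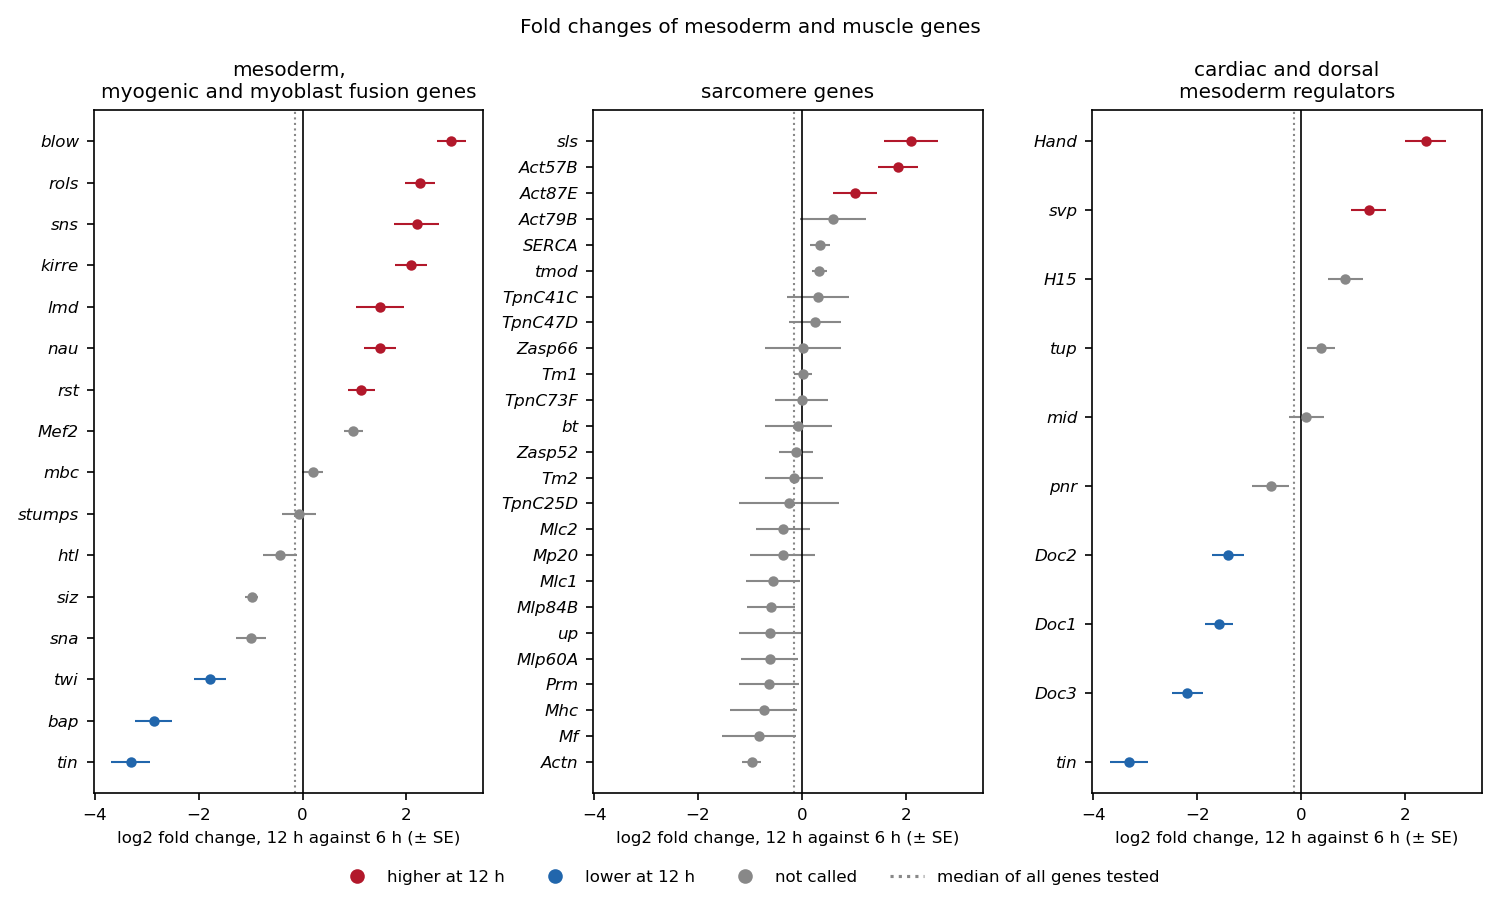
Log2 fold change of 12 h against 6 h (± SE, n = 4 each) of the mesoderm, myogenic and fusion genes, the sarcomere genes and the cardiac and dorsal mesoderm regulators tested. Red and blue points passed the test as higher and lower, and grey points did not. The list of mesoderm and fusion genes reaches from -3.31 (*tin*, in 2 lists) to 2.87 (*blow*), and 22 of 25 sarcomere genes are grey.

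Of 25 sarcomere genes, 3 rose (12.0%, near the 13.5% of all genes). *Act57B*, an actin of embryonic muscle, had 787, 732, 820 and 863 RPKM at 12 h, against 247, 162, 189 and 201 RPKM at 6 h (1.84 ± 0.39). *sls*, the titin-like protein, averaged 6.94 RPKM at 12 h and 1.44 RPKM at 6 h (2.10 ± 0.52), and *Act87E* 170 RPKM at 12 h and 74.5 RPKM at 6 h (1.02 ± 0.42), whose call was lost without 6 h replicate 2 (1.02). Actin genes are close copies, and reads without a unique alignment (1.84 to 2.64% in the 8 samples) were counted to no gene. The myosin heavy chain gene *Mhc* had 14.0, 4.70, 9.80 and 6.59 RPKM at 12 h, against 21.2, 7.52, 10.1 and 14.5 RPKM at 6 h, and the light chain *Mlc2* 55.7, 24.5, 30.5 and 31.4 RPKM at 12 h, against 56.9, 31.0, 32.9 and 44.9 RPKM at 6 h. The groups overlapped, and in each the highest sample was replicate 1, that with the most Osiris RNA. At 20 h *Mhc* was at 406 RPKM.

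Of 10 cardiac and dorsal mesoderm regulators, 4 fell (40%, against 11.3% of all genes) and 2 rose (20%, against 13.5%). The T-box genes *Doc1*, *Doc2* and *Doc3* fell by 1.59, 1.41 and 2.20, to means of 21.3, 13.6 and 11.5 RPKM at 12 h, against 56.8, 32.2 and 46.6 RPKM at 6 h. *Hand*, a factor of the differentiating heart and circular visceral muscle, had 18.3, 16.3, 14.9 and 18.0 RPKM at 12 h, against 3.04, 2.28, 2.65 and 3.35 RPKM at 6 h (2.402 ± 0.39). *svp*, a nuclear receptor of the inflow cells of the heart, averaged 10.2 RPKM at 12 h and 3.70 RPKM at 6 h (1.30 ± 0.33), and *pnr*, a GATA factor, 16.5 RPKM at 12 h and 21.98 RPKM at 6 h (-0.58 ± 0.35).

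Genes of epithelial organs formed several lists. Of 7 salivary gland genes, 4 rose (57.1%, against 13.5% of all genes), with a median of 1.68. These were *sage*, *eyg*, *PH4alphaSG1* and *PH4alphaSG2*. *PH4alphaSG2*, a prolyl hydroxylase of the secretory gland, had 23.4, 20.9, 18.96 and 23.5 RPKM at 12 h, against 2.95, 2.10, 3.98 and 3.20 RPKM at 6 h (2.66 ± 0.41). *sage*, a salivary gland basic helix-loop-helix factor, averaged 13.8 RPKM at 12 h and 2.88 RPKM at 6 h (2.10 ± 0.30). *fkh*, the forkhead factor at the start of gland formation, averaged 49.4 RPKM at 12 h and 45.9 RPKM at 6 h (-0.06 ± 0.28). Of 9 tracheal genes, 1 rose (11.1%, near the 13.5% of all genes): *vvl*, a POU factor, rose to 55.1 RPKM at 12 h, against 16.2 RPKM at 6 h (1.60 ± 0.35), while the determinant *trh* averaged 16.3 RPKM at 12 h and 12.4 RPKM at 6 h and did not pass.

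Septate junctions seal the fly epithelia. Of 17 septate junction genes, *vari*, *cora* and *Nrx-IV* rose (17.6%, near the 13.5% of all genes). *vari*, a scaffold of the MAGUK family, had 97.4, 49.1, 57.6 and 103 RPKM at 12 h, against 8.70, 8.53, 11.9 and 11.7 RPKM at 6 h (2.76 ± 0.24, adjusted p = 4.95e-13). *cora*, the FERM protein, averaged 108 RPKM at 12 h and 29.7 RPKM at 6 h (1.70 ± 0.30), and *Nrx-IV*, the neurexin, 114 RPKM at 12 h and 47.6 RPKM at 6 h (1.10 ± 0.28). *Cont* averaged 167 RPKM at 12 h and 77.3 RPKM at 6 h (0.94 ± 0.27), and passed as higher with DESeq2 (1.08) and with library totals alone (1.11). *Lac* averaged 217 RPKM at 12 h and 260 RPKM at 6 h (-0.42 ± 0.21). Of 13 epithelial polarity genes, 0 passed by edgeR, against 13.5% higher and 11.3% lower of all genes. By edgeR, 8 had an unadjusted p under 0.05 (1 higher, 7 lower), while 5395 of all 11065 genes had an adjusted p under 0.05. DESeq2 called 1, the apical determinant *crb*, which averaged 52.5 RPKM at 12 h and 25.6 RPKM at 6 h (0.87 ± 0.32). The catenin *arm* averaged 421 RPKM at 12 h and 628 RPKM at 6 h (-0.74 ± 0.08).

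Of 14 genes of chitin synthesis and modification, 6 rose (42.9%, against 13.5% of all genes), with a median of 1.02. *Cht2*, a chitinase, had 8.64, 7.69, 8.86 and 8.44 RPKM at 12 h, against 1.95, 1.33, 1.97 and 1.68 RPKM at 6 h (2.12 ± 0.21). *kkv*, the chitin synthase, had 14.9, 10.0, 11.8 and 16.3 RPKM at 12 h, against 6.25, 3.61, 4.18 and 5.63 RPKM at 6 h (1.27 ± 0.51, adjusted p = 0.034), and its mean at 8 h was lower than at either time, 2.49 RPKM. *knk*, *rtv*, *reb* and the chitin deacetylase *verm* rose by 1.31, 1.04, 2.27 and 1.56. At both times *knk* and *verm* were highest in replicate 1, that with the most Osiris RNA. Their means at 8 h, 0.784 and 10.9 RPKM, were lower than at either time. Without 12 h replicate 1 and 6 h replicate 1, 2 of the 14 genes passed as higher, beside 1284 of all genes. Without 6 h replicate 2, 4 passed as higher, beside 1336 of all genes. Genes of the cuticle itself did not rise as a group. Of 60 tested RR-type cuticle protein genes, 2 were higher (3.33%, against 13.5% of all genes) and 3 lower (5%, against 11.3%), with a median of -0.66. Of 17 Osiris and 19 Tweedle genes that passed the count filter (of 22 and 25), 0 passed by edgeR or DESeq2 in the fits of all 56 samples and 0 had an unadjusted p under 0.05, with medians of -0.94 and -0.71. With edgeR on the 8 samples alone, 2 of the Osiris genes passed as lower (beside 914 of all genes), and 5 with the replicate block as well (beside 933). Of 8 tanning genes, 2 rose (25%, against 13.5% of all genes). These were *e* and *Pu*, with means of 0.529 and 5.19 RPKM at 12 h, against 0.105 and 1.64 RPKM at 6 h.

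Of 13 basement membrane and integrin genes, 5 rose (38.5%, against 13.5% of all genes), with a median of 0.73. The laminin subunit *LanA* had 278, 308, 337 and 301 RPKM at 12 h, against 119, 88.1, 111 and 108 RPKM at 6 h (1.36 ± 0.50, adjusted p = 0.0215), and *LanB1* averaged 282 RPKM at 12 h and 112 RPKM at 6 h (1.18 ± 0.45). *Ndg*, nidogen, and *Ppn*, papilin, rose by 1.32 and 1.42. The integrin *Itgbn* averaged 14.6 RPKM at 12 h and 4.40 RPKM at 6 h (1.56 ± 0.32). *Itgbn* alone of the 5 remained called without 6 h replicate 2 (1.55), and likewise without 12 h replicate 1 and 6 h replicate 1 (1.51). The collagen IV genes *Col4a1* and *vkg* averaged 21.2 and 12.2 RPKM at 12 h, against 11.5 and 6.86 RPKM at 6 h, and did not pass. Both were highest in replicate 1 at each time, that with the most Osiris RNA. Their means at 8 h were 5.01 and 3.08 RPKM, lower than at either time.

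Of 9 blood cell genes, 2 rose (22.2%, against 13.5% of all genes). *PPO2*, the phenoloxidase of crystal cells, rose to 75.1, 49.7, 65.0 and 81.9 RPKM at 12 h, against 15.6, 11.3, 22.2 and 17.2 RPKM at 6 h (1.88 ± 0.33). *Pvr*, a receptor tyrosine kinase of haemocytes, averaged 29.9 RPKM at 12 h and 12.1 RPKM at 6 h (1.14 ± 0.37). *srp*, the GATA factor of blood and fat body, averaged 19.5 RPKM at 12 h and 19.6 RPKM at 6 h, and *Hml*, a marker of larval haemocytes, 0.0376 RPKM at 12 h and 0.0311 RPKM at 6 h, from 4 to 9 counts in the 12 h samples and 3 to 11 in the 6 h samples. Of 9 gut regulators, *bap* and *hkb* fell (22.2%, against 11.3% of all genes). *GATAe*, the endodermal GATA factor, averaged 17.3 RPKM at 12 h and 10.3 RPKM at 6 h (0.58 ± 0.33). Of 10 apoptosis genes, 2 rose (20%, against 13.5% of all genes) and 1 fell (10%, near the 11.3% of all genes). *grim* rose to 9.78 RPKM at 12 h, against 2.80 RPKM at 6 h (1.64 ± 0.34), and the initiator caspase *Dronc* to 25.0 RPKM at 12 h, against 9.01 RPKM at 6 h (1.30 ± 0.36). The effector caspase *Dcp-1* fell by 1.14, a call lost with library totals alone. The other death genes of the same locus did not pass: *rpr* averaged 36.0 RPKM at 12 h and 36.1 RPKM at 6 h, and *hid* 34.5 RPKM at 12 h and 25.6 RPKM at 6 h.

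Of 78 cytoplasmic ribosomal protein genes, 1 was lower (1.28%, against 11.3% of all genes), and the median was -0.18. This was *RpS5b*, a copy used in the germline, with 172 RPKM at 12 h and 392 RPKM at 6 h (-1.35 ± 0.21). Of 31 proteasome genes, 0 passed by edgeR or DESeq2 (against 13.5% higher and 11.3% lower of all genes by edgeR), with a median of -0.49. By edgeR, 23 had an unadjusted p under 0.05, all lower, while 5395 of all 11065 genes had an adjusted p under 0.05. Of 62 nuclear respiratory chain genes, 1 was lower (1.61%, against 11.3% of all genes), with a median of -0.20. This was *COX7CL*, a copy at 0.612 RPKM at 12 h and 1.56 RPKM at 6 h. Of 22 V-ATPase genes, which encode the proton pump of acidic organelles, 6 rose (27.3%, against 13.5% of all genes) and 3 fell (13.6%, against 11.3%). *Vha55* had 67.3, 67.0, 69.8 and 76.7 RPKM at 12 h, against 26.7, 17.5, 20.6 and 19.01 RPKM at 6 h (1.58 ± 0.19), *Vha36-1* averaged 109 RPKM at 12 h and 34.7 RPKM at 6 h, and *VhaM9.7-d* fell to 0.171 RPKM at 12 h, against 3.06 RPKM at 6 h.

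Of 15 glycolysis genes, 2 rose (13.3%, near the 13.5% of all genes). *Hex-A*, the hexokinase, rose to 27.3, 21.1, 23.3 and 35.1 RPKM at 12 h, against 4.68, 4.71, 6.15 and 5.88 RPKM at 6 h (2.15 ± 0.21), and *Eno*, enolase, averaged 29.6 RPKM at 12 h and 12.4 RPKM at 6 h (1.10 ± 0.20), a call lost without 6 h replicate 2. *Ldh*, lactate dehydrogenase, averaged 20.95 RPKM at 12 h and 13.8 RPKM at 6 h and did not pass. At 6 h *Eno* and *Ldh* were highest in replicate 1, that with the most Osiris RNA. Their means at 8 h, 6.33 and 10.5 RPKM, were lower than at either time. Among 8 tubulin genes, 2 rose (25%, against 13.5% of all genes) and 3 fell (37.5%, against 11.3%). *alphaTub85E* and *betaTub97EF* rose by 2.03 and 1.92, to 19.5 and 20.9 RPKM at 12 h, against 4.28 and 4.98 RPKM at 6 h. The most abundant, *alphaTub84B*, averaged 1929 RPKM at 12 h and 3308 RPKM at 6 h (-0.94 ± 0.12). *alphaTub84D*, *alphaTub67C* and *gammaTub37C* fell by 1.03, 1.31 and 1.19, and 1 of the 3 remained called with library totals alone. *alphaTub84D* (-0.89) and *alphaTub67C* (-1.14) also lost the call with DESeq2, and likewise with the 8 samples alone. *alphaTub67C* averaged only 0.662 RPKM at 12 h and 1.42 RPKM at 6 h, and its groups overlapped. Of 7 heat shock genes, 2 rose (28.6%, against 13.5% of all genes). *Hsp27* averaged 37.0 RPKM at 12 h and 13.8 RPKM at 6 h (1.26 ± 0.25). *Hsp70Bb*, a near-identical copy among the *Hsp70* genes whose shared reads were counted to no gene, averaged 0.632 RPKM at 12 h and 0.125 RPKM at 6 h. The adult female marker *Cp15*, a chorion gene, was at 0, 0.124, 0 and 0 RPKM at 12 h, against 0.887, 0.686, 0 and 2.74 RPKM at 6 h. Its groups overlapped, and DESeq2 did not call it.

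**Figure D5:**
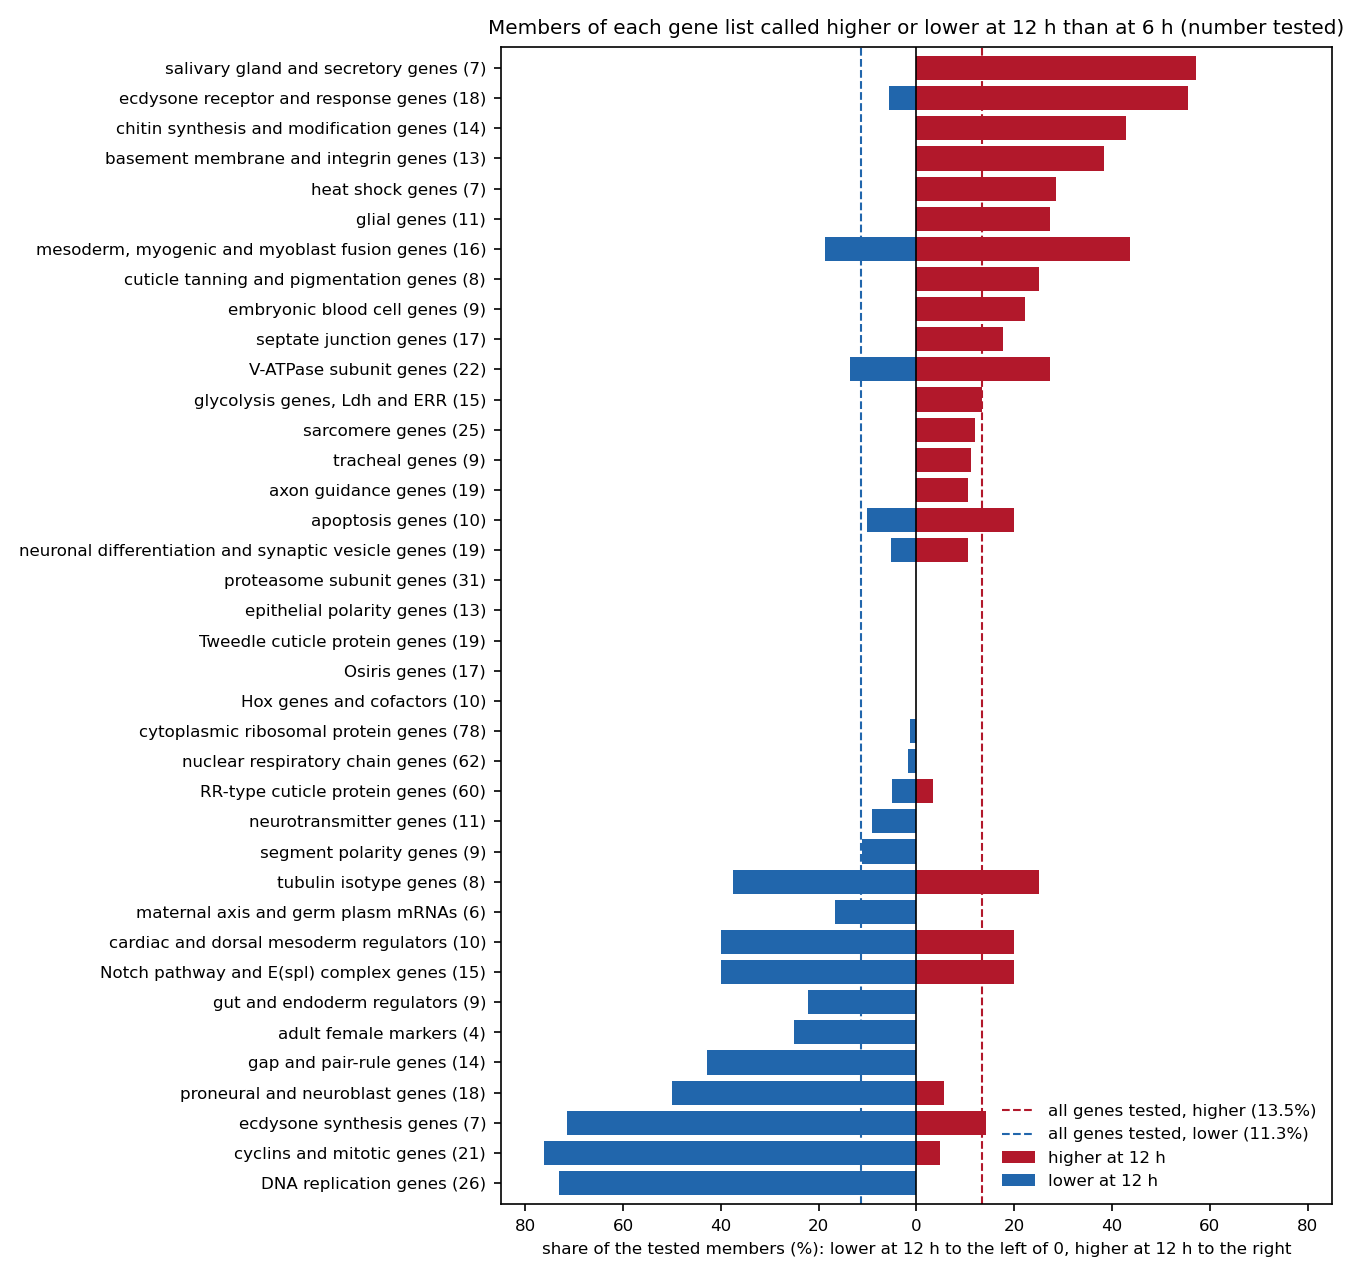
Share of the tested members of each of 38 gene lists that passed the test as higher (red, right of 0) or lower (blue, left of 0) at 12 h. The number tested is in parentheses, and dashed lines are the shares over all genes tested, 13.5% higher and 11.3% lower. Salivary gland and ecdysone response genes reach 57.1% and 55.6% higher, and cyclin and mitotic, DNA replication and ecdysone synthesis genes 76.2%, 73.1% and 71.4% lower, over lists of 7 to 26 genes. The ecdysone synthesis list includes *phtm*, matched after its value was seen.

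Levels at 8 and 10 h showed when the changes took place. At 8 h, the 1246 lower genes had reached a median of 37.1% of their log2 change, and the 1493 higher genes 4.76%. At 10 h the medians were 80.7% for the lower and 72.8% for the higher genes. The means at 6, 8, 10 and 12 h stood in order for 869 of the lower genes (69.7%) and for 692 of the higher genes (46.3%). Most of the change lay between 6 and 8 h in 34.3% of the lower and 10.5% of the higher genes, and between 10 and 12 h in 6.10% and 24.6%. These shares are descriptions, since the 12 and 6 h levels also chose the genes. Osiris RNA averaged 258, 91.9, 185 and 137 RPKM at 6, 8, 10 and 12 h, and 1 sample of 10 h held 188 RPKM of adult female markers. The part of either in the order of the means was not tested.

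Levels at other times are set against the 12 h or 6 h means that also chose the genes, and are descriptions. At 14 h, 72.3% of the higher genes were above their mean at 12 h, against 54.3% of all genes tested, and at 20 h it was 63.6%, against 48.4%. Of the lower genes, 30.4% were above their 12 h mean at 14 h and 33.1% at 20 h. At 3 h, 57.1% of the lower genes were above their mean at 6 h, against 43.4% of all genes and 21.5% of the higher genes. A level of 1 RPKM or more at 1 h, when the mRNA is mostly maternal, was found for 56.3% of the lower, 39.3% of the higher and 61.7% of all annotated genes tested.

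The 2 sets also differed in structure. The median span from first to last annotated base was 3764 bases for 1459 annotated higher genes and 2091 bases for 1231 lower genes, beside 2609 bases for all 10861. The exon lengths were closer, at 2216, 1673 and 1974 bases. A span of more than 3 times the exon length was found for 25.2% of the higher, 8.77% of the lower and 15.1% of all genes. Noncoding RNA genes made up 493 of the genes tested, of which 16.2% were higher and 19.7% lower, and of the 10231 protein-coding genes 13.5% were higher and 10.9% lower. Shares were alike on the large chromosome arms, between 12.7% and 14.3% higher and between 10.5% and 12.0% lower, and on chromosome 4, with 91 genes, 8.79% were higher and 6.59% lower.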

How the data were processed

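Polyadenylated RNA of pooled whole embryos was sequenced by the authors with a stranded kit, and reads were aligned with STAR 2.4.0h to BDGP6 and counted per gene with HTSeq 0.6.1p1 (union mode, Ensembl 79). The authors deposited counts as whole reads for each gene, without normalization, in 1 table per sample. The 5 summary lines of each table were left out of all totals. Reads outside annotated genes were 1.31 to 1.44%, ambiguous reads 1.38 to 1.55% and reads without a unique alignment 1.84 to 2.64% in the 8 samples. Reads of these kinds were counted to no gene. The mitochondrial large rRNA held 7.44 to 12.9% of the counts at 12 h and 6.22 to 11.1% at 6 h. Of 17558 gene IDs, 17252 were found in the Ensembl 115 annotation of BDGP6, from which symbols, positions and exon lengths were taken.

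All 56 samples were fitted together with edgeR 4.0.16 (quasi-likelihood test, filterByExpr, TMM factors, R 4.3.3), so that the spread was shared over 14 time points, and 12 h was compared with 6 h. Genes with a Benjamini-Hochberg adjusted p under 0.05 and a fold change of 1 or more on the log2 scale in either direction were called changed. Alternatives were DESeq2 1.42.0, other scalings, no filter, fewer samples, a replicate block, other fold limits and leaving out each sample. A fit without 12 h replicate 1 and 6 h replicate 1 was added after seeing the data. The procedure was tested on simulated data with 200 genes changed 4-fold. The fit of all samples called 162 of them (81%) and 4 other genes. With the 8 samples alone, 148 (74%) and 5 other genes were called. Tables and figures were made with Python 3.11.15, numpy 2.4.6, pandas 2.3.3 and matplotlib 3.10.9. RPKM was computed from exon lengths and library totals.

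Gene lists (38, with 802 entries, of which 778 had a gene ID, 767 distinct genes) and the genes named were chosen with earlier results of these data known. The 15 largest rises and the 15 largest falls were named where the 8 samples averaged 100 counts or more and those of the 2 times did not overlap. In each list, the first members, the most abundant and those with the largest change were named, and further members were named after their values were seen. The RR cuticle list was corrected by symbol, and *phtm* was matched under its current symbol after its value was seen. The 24 entries without a gene ID were not analysed here. A planned search for promoter motifs was not run, and no sequences are given. The floor of 3 counts covers counting error only. SD measures the spread between the 4 samples of a time, and SE comes from the fit of all 56 samples.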

Additional observations from a re-analysis of the deposited data

Results flagged for a closer look

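Of 420 groups of 4 samples checked (210 named genes at 2 times), 14 held a sample whose gap to the nearest other sample took up more of the group's range than Dixon's critical value allows, and chance alone gives about 1 in 20. At 12 h these were *CG34377* (gap 0.901 of the range, replicate 4 highest at 6.23 RPKM), *blow* (0.88, replicate 4 highest at 44.3 RPKM), *rols* (0.894, replicate 4 highest at 14.6 RPKM), *hkb* (0.879, replicate 1 lowest at 6.26 RPKM), *SerT* (0.892, replicate 2 highest at 0.0515 RPKM), *sro* (0.927, replicate 2 highest at 0.222 RPKM) and *Cp15* (1, replicate 2 at 0.124 RPKM and the others at 0). At 6 h they were *Oat* (0.932, replicate 3 highest at 11.6 RPKM), *fzr* (0.919, replicate 3 highest at 65.2 RPKM), *nau* (0.899, replicate 3 lowest at 1.40 RPKM), *Kr* (0.876, replicate 2 highest at 62.9 RPKM), *hth* (0.876, replicate 2 highest at 51.4 RPKM), *Pvr* (0.846, replicate 2 lowest at 10.8 RPKM) and *nSyb* (0.955, replicate 1 highest at 1.5 RPKM).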

How the results depend on the processing

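In all settings tried, the direction of every named gene's log2 fold change that passed the test was kept, and of 160 named genes that passed, 136 did so in all 17 settings. With adjusted p alone, 5395 genes changed, 2318 higher and 3077 lower, and with a log2 fold change of at least 2, 838 changed, 478 higher and 360 lower. Leaving out 1 sample at a time gave 2460 to 2826 changed genes, 1336 to 1784 higher and 811 to 1211 lower, the lowest count of lower genes without 12 h replicate 4. DESeq2 gave 1747 higher and 985 lower genes, DESeq2 size factors 1739 and 986, library totals alone 1770 and 934, no filter 1760 and 1032, the 8 samples alone 1522 and 914, and the 16 samples of 6 to 12 h 1644 and 904. The share of higher genes was 62.5 to 65.5% in these fits, 52.5 to 67.0% with 1 sample left out (52.5% without 6 h replicate 2) and 54.5% in the fit reported. Deviations from the time means of 12 h and 6 h samples with the same replicate number correlated by 0.019, 0.181, -0.0427 and -0.134. Those of samples with different numbers correlated by -0.184 to 0.331. Such correlations cannot show whether samples with the same number shared a collection. With the replicate block in the fit, 2709 genes changed, 1484 higher and 1225 lower, and no named gene lost its call. With the replicate block and the 8 samples alone, 2456 changed. The causes of these differences were not tested. A gene at or below 3 counts, 0.163 to 0.224 CPM in these samples, could not be told from absent.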
